A study of Mus musculus with 10 samples.

Results

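The Dlk1-Dio3 region of mouse chromosome 12 is an imprinted domain, in which the genes expressed depend on the parent that gave the chromosome. Long non-coding transcripts of the maternal chromosome (Meg3, Rian, Mirg and a transcript antisense to Rtl1) give rise to one of the largest groups of microRNAs known in mammals. These microRNAs are best known from embryo, placenta, brain and muscle, and most are low in mature blood cells of adult animals. MicroRNAs pair with messenger RNAs mainly through their seed (bases 2 to 8 of the mature strand), and each hairpin precursor can yield a strand from its 5p arm and one from its 3p arm.

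The cluster was taken by position, as the microRNA rows of the count table that lie in the stretch from miR-493 to miR-410. This gave 80 rows of the 2015 in the microRNA class and of the 6968 features in the table. They comprise 72 mature microRNAs and 8 hairpin transcripts, span 163.5 kb from position 109580243 to 109743784 of chromosome 12 (mm10), and all 80 lie on the plus strand. The last of them lies 3.51 Mb from the nearest of the genes Ighm, Ighg1 and Igha, on the chromosome that also carries the deleted enhancers.

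Small RNA was read from CD43- splenic B-cells of wt mice, of 3'RR-deficient mice (which lack the enhancer block downstream of the heavy chain constant genes) and of Eµ-deficient mice (which lack the intronic heavy chain enhancer, with its matrix attachment regions per the study's methods), all on a 129 background. Cells were non-stimulated (NS) or stimulated with lipopolysaccharide (LPS, 5 µg/ml per the sample characteristics, although the protocol text of the labels gives milligrams), and the labels state 2 days of culture for both conditions, whereas the methods describe cells before and after stimulation. Each library came from a pool of 2 mice, and the spread between replicates is that between pools. Mice of both sexes aged 8 to 12 weeks were used, and the labels do not tie sex or age to a library. For wt and 3'RR-deficient mice 2 libraries per condition were analysed (wt NS, wt LPS, 3'RR NS, 3'RR LPS), and for Eµ-deficient mice 1 (Eµ NS, Eµ LPS).

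MicroRNA counts per library ranged from 2225722 to 12377000, and both second NS replicates (wt and 3'RR) were the shallowest. The lymphoid list (miR-150-5p, miR-142a-5p, miR-142a-3p, miR-181a-5p and miR-155-5p) was abundant in every library, with a summed level of 84736 to 242695 CPM (counts per 1000000 of the microRNA class, with library sizes scaled by TMM). A cluster microRNA seen 3 times in a library corresponds to 0.272 to 1.10 CPM depending on depth, and values near that floor carry a large counting error.

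The mature sequences of cluster microRNAs on which the results below turn are given first, from RefSeq (GRCm38.p6), 5′ to 3′, with the seed in capitals. Of the 72 mature members 68 had an entry, all 68 at the coordinates of the count table, and the other 4 were miR-376c-3p, miR-485-5p, miR-487b-3p and miR-539-3p. The following 10, shown because they are the called members with an entry, passed the test of Eµ-deficient libraries against the other 8 (a comparison added after the data were seen) or against wt. Of them 7 (all but miR-127-3p, miR-409-3p and miR-369-3p) passed the filter on low counts only through the Eµ-deficient libraries in which they were high. Their 10 seeds all differ.
miR-493-5p: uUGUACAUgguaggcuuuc
miR-127-3p: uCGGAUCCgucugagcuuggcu
miR-370-3p: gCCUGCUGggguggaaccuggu
miR-654-3p: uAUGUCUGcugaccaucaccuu
miR-376a-3p: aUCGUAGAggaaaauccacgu
miR-381-3p: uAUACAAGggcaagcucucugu
miR-382-3p: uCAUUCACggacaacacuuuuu
miR-409-3p: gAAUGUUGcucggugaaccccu
miR-369-3p: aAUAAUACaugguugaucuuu
miR-410-3p: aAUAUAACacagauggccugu

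Shared seeds were few. The 68 sequences held 64 seeds, 4 of which were shared by a pair of members (8 members in all), and 2 members (miR-540-3p and miR-377-5p) shared a seed with a microRNA row elsewhere in the table. The pair below shows neighbours that share a seed, the 3p strands of miR-379 and miR-411.
miR-379-3p: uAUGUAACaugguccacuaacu
miR-411-3p: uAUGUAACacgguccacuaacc
For comparison, 3 members that did not follow the others (described further on) have the following sequences.
miR-434-3p: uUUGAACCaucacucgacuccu
miR-668-3p: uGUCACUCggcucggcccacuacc
miR-541-5p: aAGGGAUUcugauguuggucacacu

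Along the window the members fall into 4 stretches. The first holds 8 members (miR-493, miR-337, miR-540, miR-665) upstream of Rtl1, with no other annotated gene over them. The next holds 11 members (miR-431, miR-433, miR-127, miR-434, miR-136 and a Mir3071 hairpin) on the opposite strand of an exon of Rtl1, a retrotransposon-derived gene. The third holds 4 members inside Rian (miR-341 and miR-370 among them), and the last holds 57 members from miR-379 to miR-410, of which 23 lie inside Mirg. Of those 23, 9 lie in Mirg exons (miR-134-5p, both strands of miR-485, miR-377 and miR-410, and the Mir134 and Mir485 hairpins), and the other 14 in its introns.

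The cluster as a whole was much more abundant in both Eµ-deficient libraries than in the other 8. Cluster counts made up 192 per 1000000 microRNA counts in Eµ NS (Wilson 95% interval 182 to 201) and 326 in Eµ LPS (315 to 338). In wt NS the share was 14.1 and 46.3 per 1000000 in replicates 1 and 2, and in wt LPS it was 32.8 and 27.9. In 3'RR NS it was 20.01 and 90.8, and in 3'RR LPS 19.2 and 8.27. The groups thus did not overlap, and the lower Eµ-deficient library stood 2.11 times above the highest of the other 8, which was 3'RR NS replicate 2. The mean of the Eµ-deficient libraries was 8.56 times that of the 4 wt libraries, 6.35 times within NS and 10.7 times within LPS. The ratio within NS was 13.6 without wt NS replicate 2 and 4.14 without wt NS replicate 1, and within LPS it was 11.7 and 9.94 without wt LPS replicates 1 and 2. In these bulk samples a change in the number of cells of a type and a change in RNA per cell cannot be told apart.

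**Figure D1:**
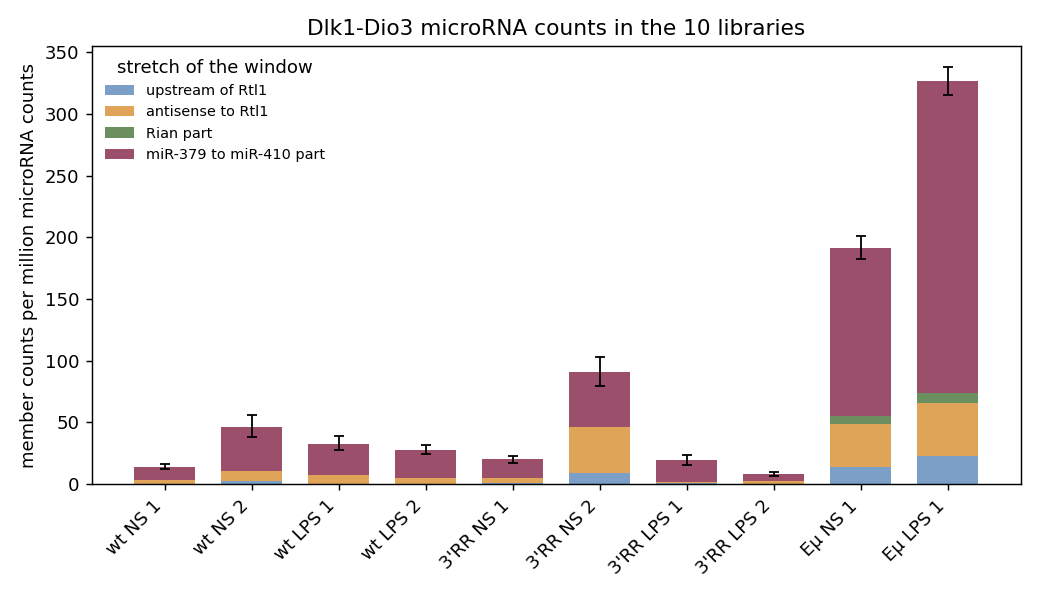
Bars show the cluster counts per 1000000 microRNA counts (vertical axis, linear) in each of the 10 libraries, stacked by the 4 stretches of the window, and error bars are the Wilson 95% intervals of the total. Both Eµ-deficient libraries (192 and 326 per 1000000) stand above the other 8, which range from 8.27 to 90.8.

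Even so, the cluster remained a small part of the microRNA pool. The most abundant member in the Eµ-deficient libraries, miR-369-3p (26.2 CPM on average), ranked 242 among the mature microRNAs there and 539 in the other 8 libraries. The 10 members with the most counts held 62.4% of the cluster counts of the Eµ-deficient libraries.

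More members were detected as well. At least 1 count was seen for 57 of the 80 members in Eµ NS and 67 in Eµ LPS, against 12 to 25 in the other 8 libraries. Since depth differed, the expected number was computed after thinning each library to the 2225722 microRNA counts of the shallowest, which left 43.5 members in Eµ NS and 48.9 in Eµ LPS against 10.6 to 21.5 in the others. Members with 10 counts or more numbered 33 in each Eµ-deficient library and 1 to 8 in the others.

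Counted member by member, 38 of the 78 members with any count (37 mature, 1 hairpin) were higher in both Eµ-deficient libraries than in each of the other 8, and 0 were lower in both. Over all 1953 microRNA features with a count, 5.33% were higher in both and 0.922% lower in both. Only 48 of the 78 members had a count in the other 8 libraries, and the rest could not come out lower in both. Some of the 38 were under the floor of 3 counts in the Eµ-deficient libraries, such as miR-1197-3p and miR-154-5p, with 1 count in each. The 38 lay in every stretch, with 3 of 7 detected members upstream of Rtl1, 3 of 11 antisense to Rtl1, 1 of 4 in Rian and 31 of 56 from miR-379 to miR-410. Against the 4 wt libraries alone, 43 of 78 were higher in both and 0 lower (7.01% and 2.05% of all features), and against the 4 3'RR-deficient libraries 41 and 0 (7.42% and 2.36%). Without both second NS replicates, 42 members stood above the remaining 6 libraries, as did 146 of all features where 104 did with every library.

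**Figure D2:**
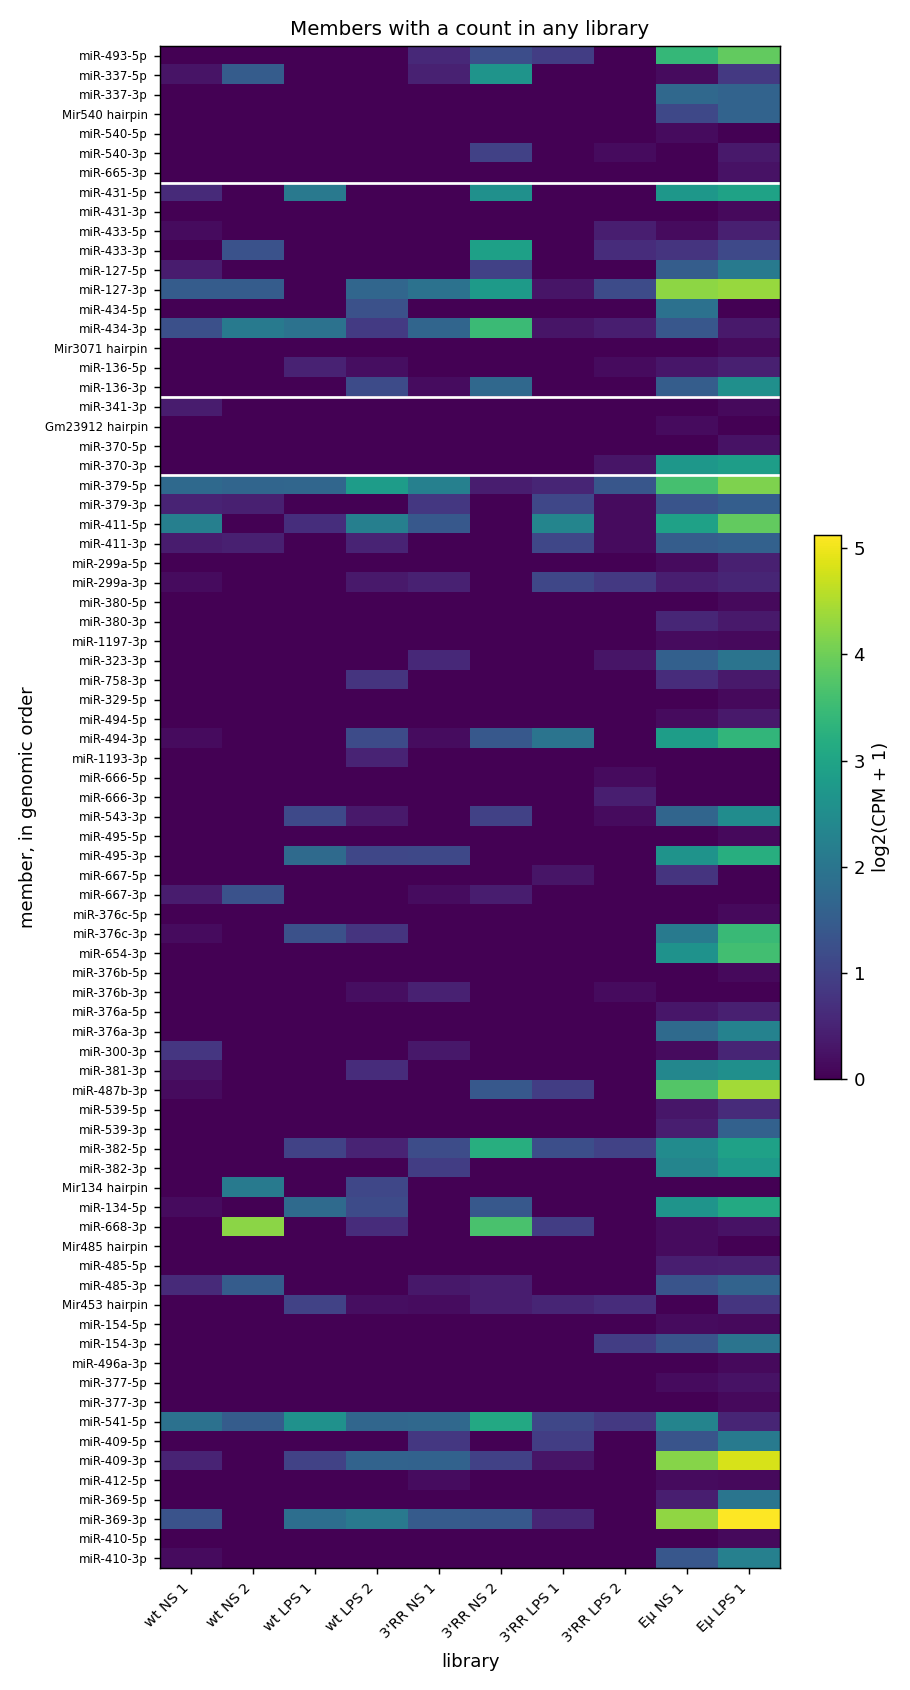
Each row is a member with a count in any library, in genomic order, and each column a library. Color gives log2(CPM + 1), and white lines separate the 4 stretches. The last 2 columns, the Eµ-deficient libraries, hold higher values than each of the other 8 in 38 of the 78 rows. Some of the 38 are too low to stand out in color (miR-1197-3p at 0.116 and 0.0906 CPM). miR-668-3p is bright only in both second NS replicates.

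The test of Eµ-deficient against wt libraries used both conditions together, with stimulation as a term, because the Eµ-deficient mice had 1 library in each. It passed 2 members, miR-487b-3p and miR-493-5p, both higher in Eµ-deficient cells (edgeR quasi-likelihood test, adjusted p = 0.0219 and 0.0235). Over all 988 microRNA features tested, 16 passed (1.62%), 14 of them higher (1.42%). Of the 80 members 39 passed the filter on low counts, 26 of them only because the Eµ-deficient libraries were included, so the count among those tested says little by itself, and both members called are among the 26. With no filter, 11 of the 78 members with a count passed, all 11 higher, against 2.41% of 1953 features (2.15% higher). Of these 78, 48 had a count in the 8 libraries outside Eµ. The rest were counted only in the Eµ-deficient libraries and could only come out higher there, so this count has the same limit.

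miR-487b-3p (chr12:109727382-109727403) was counted 107 times in Eµ NS and 224 times in Eµ LPS. It was counted once in wt NS replicate 1 and not in the other 3 wt libraries, and it had 0 and 5 counts in 3'RR NS and 4 and 0 in 3'RR LPS. The Eµ-deficient libraries stood above the other 8, and the fold against wt rests on 1 count, with a ratio of 408 whose counting interval runs from 72.7 to 16160.

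miR-493-5p (chr12:109580243-109580261), the first microRNA of the cluster, was counted 83 times in Eµ NS and 154 times in Eµ LPS. It had 0 counts in the 4 wt libraries, 4 and 4 in 3'RR NS and 4 and 0 in 3'RR LPS. With the wt libraries set at the floor of 3 counts each, its level was at least 19.3-fold higher in Eµ-deficient cells.

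Both calls depended on few libraries. The number of members called was 0 without wt LPS replicate 1, 0 without wt LPS replicate 2, 0 without Eµ LPS and 1 without Eµ NS, and it was 4 without wt NS replicate 1, without wt NS replicate 2 or without 3'RR NS replicate 2. Over all features the calls were 2 of 980, 2 of 975, 1 of 937 and 15 of 968 in the first 4 of these fits, and 33 of 981, 22 of 981 and 19 of 977 in the last 3. It was 2 members in each of the remaining 3 fits that left out a library (13 to 15 features), 8 without both second NS replicates (71 of 955 features) and 7 with DESeq2, in which 5.57% of features passed.

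Other members of the list had large differences that did not pass. miR-654-3p was counted 44 times in Eµ NS and 120 times in Eµ LPS and 0 times in the other 8 libraries (adjusted p = 0.0583 by edgeR against wt), at least 13.1-fold above the floor of wt. miR-370-3p, the main strand of the microRNA inside Rian, had 48 and 69 counts in the Eµ-deficient libraries, 2 in 3'RR LPS replicate 2 and 0 in the other 7 (adjusted p = 0.0555 by edgeR). miR-376a-3p had 21 and 42 counts and 0 in the other 8, and miR-337-3p 20 and 23 and 0 in the other 8.

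Members with measurable levels in all genotypes gave finite ratios. miR-409-3p had 17.4 CPM in Eµ NS and 27.1 in Eµ LPS, against 0.426 and 0 in wt NS, 1.00 and 2.10 in wt LPS, 2.05 and 0.986 in 3'RR NS, and 0.226 and 0 in 3'RR LPS. The Eµ-deficient libraries did not overlap with the others, with a log2 difference from wt of 4.40 ± 1.23 (SE) that missed the threshold (adjusted p = 0.0894 by edgeR). miR-369-3p had 18.4 and 33.9 CPM in the Eµ-deficient libraries and at most 3.22 in the other 8 (log2 difference from wt 3.63 ± 1.14, adjusted p = 0.139 by edgeR).

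miR-127-3p, which lies antisense to Rtl1 and can direct its cleavage, had 18.2 CPM in Eµ NS and 19.1 in Eµ LPS. In wt it had 1.81, 1.83, 0 and 2.24 CPM, and in 3'RR-deficient cells 2.82, 5.91, 0.226 and 1.25. Its log2 difference from wt was 3.63 ± 1.08 (adjusted p = 0.104 by edgeR), again without overlap between the groups.

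miR-379-5p and miR-411-5p, the first hairpins of the long stretch, were among the members with the most counts in the other libraries. miR-379-5p had 11.2 and 16.7 CPM in Eµ NS and Eµ LPS against 0.329 to 6.17 in the other 8, and miR-411-5p had 6.61 and 13.8 against 0 to 4.06. Their log2 differences from wt were 1.96 ± 0.961 and 2.02 ± 1.34, and neither passed (adjusted p = 0.464 and 0.588 by edgeR).

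**Figure D3:**
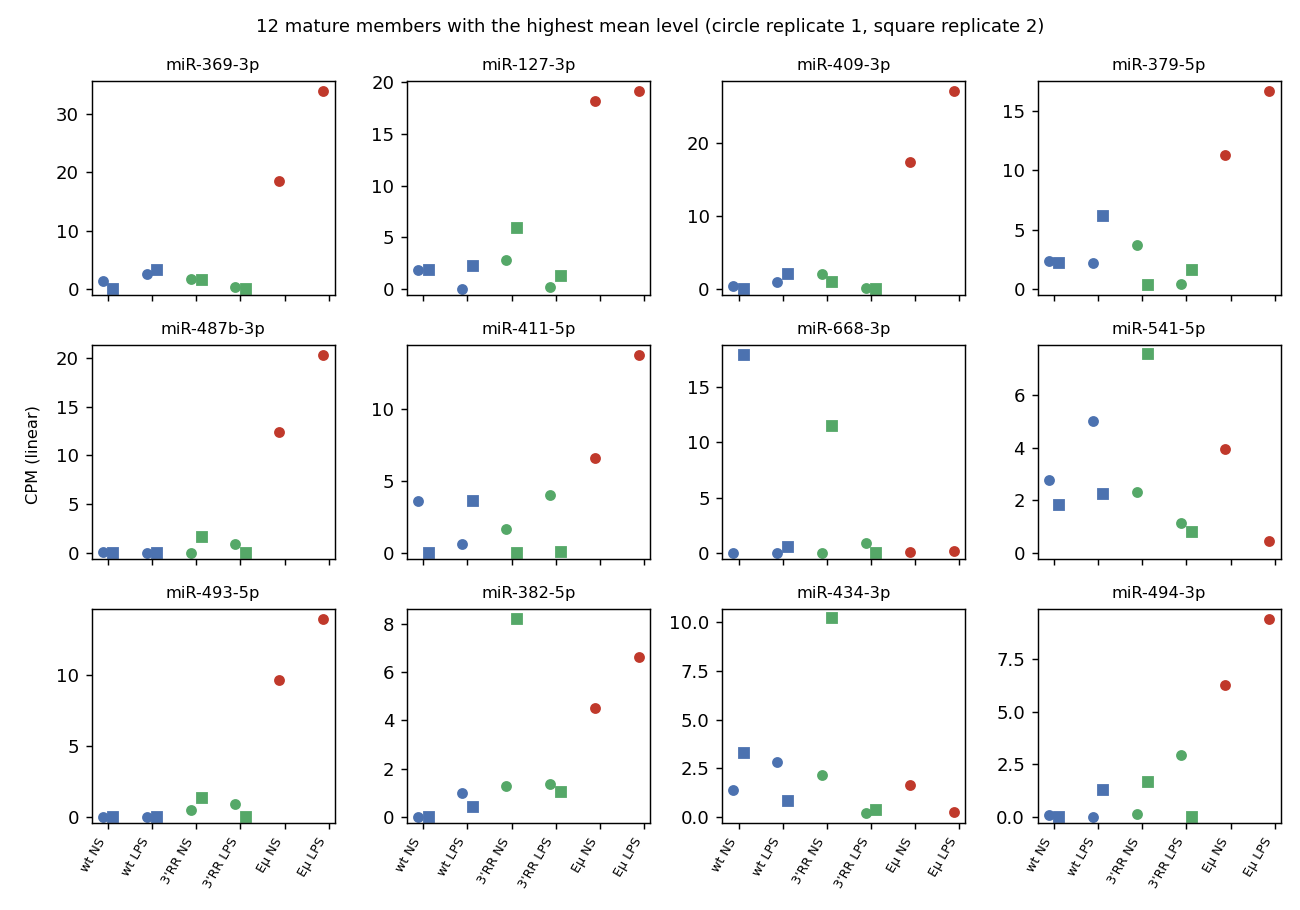
Level in CPM (vertical axis, linear, one scale per panel) of the 12 mature members with the highest mean over the 10 libraries, by genotype and condition. Circles are replicate 1 and squares replicate 2. For 8 of the 12 both Eµ-deficient points lie above the other 8 points, while miR-668-3p, miR-541-5p, miR-382-5p and miR-434-3p overlap.

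Against the 3'RR-deficient libraries 1 member passed, miR-376c-3p (adjusted p = 0.0270 by edgeR), out of 20 features of 988 (2.02%). It had 28 and 111 counts in Eµ NS and Eµ LPS and 0 in the 4 3'RR-deficient libraries, whereas wt had 1, 0, 7 and 5. This member too passed the filter only with the Eµ-deficient libraries. The comparison was added after the data were seen. Its call was lost without wt LPS replicate 1, 3'RR NS replicate 1, either 3'RR LPS replicate, Eµ NS or Eµ LPS, while the count of calls was 4 without wt NS replicate 1, 7 without wt NS replicate 2 and 4 without 3'RR NS replicate 2. The calls over all features rose too, from 20 of 988 to 32 of 981, 37 of 981 and 26 of 977. It was 9 with DESeq2 (7.09% of features) and 10 with no filter (2.30%). Of all features 1.72% were called higher.

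Against all 8 other libraries together, also added after the data were seen, 12 members passed and all 12 were higher in Eµ-deficient cells, where 44 of 988 features passed (4.45%, or 4.05% higher). They were miR-370-3p, miR-654-3p, miR-487b-3p, miR-409-3p, miR-410-3p, miR-493-5p, miR-369-3p, miR-376c-3p, miR-382-3p, miR-127-3p, miR-381-3p and miR-376a-3p, with adjusted p from 0.00366 to 0.0444 (edgeR). The log2 differences ran from 3.40 for miR-127-3p to 8.61 for miR-654-3p, the latter fitted against libraries that were all at 0. All 12 come from hairpins spread over the window, 1 upstream of Rtl1, 1 antisense to it, 1 in Rian and 9 between miR-379 and miR-410. All 10 libraries of this comparison are shared with those against wt and against 3'RR-deficient cells, and 9 of the 12 members (all but miR-409-3p, miR-369-3p and miR-127-3p) entered the fit only through the Eµ-deficient libraries. The count was 0 without Eµ NS (24 of 968 features), 0 without Eµ LPS (0 of 937 by edgeR, with 100 at an unadjusted p under 0.05) and 6 without 3'RR LPS replicate 1 (26 of 987), and it was 20 without both second NS replicates (109 of 955). It was 9 with DESeq2 (7.19% of features) and 20 with no filter (3.69%).

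**Figure D4:**
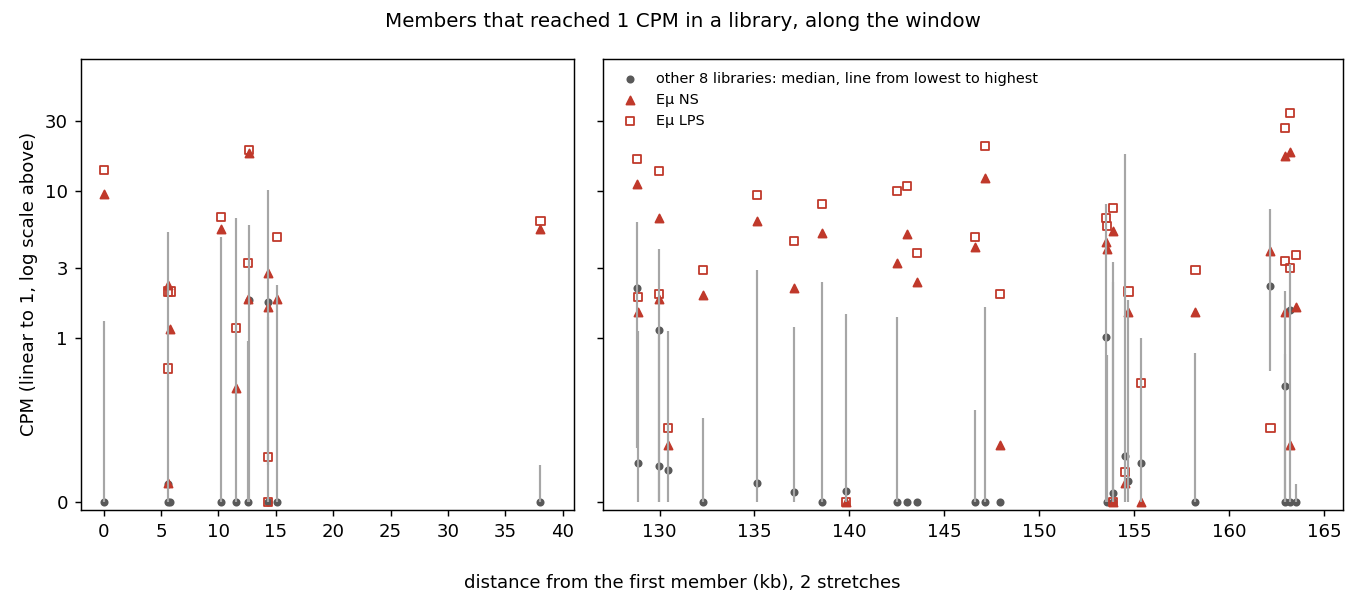
Level in CPM (vertical axis, linear up to 1 and logarithmic above) against the distance in kb from the first member, for members that reached 1 CPM in a library, in 2 panels that leave out the empty stretch between them. Red triangles are Eµ NS, open red squares Eµ LPS, and grey dots with lines the median and range of the other 8 libraries. Red symbols lie above the grey lines for members of each stretch, while for miR-541-5p (highest of the other libraries 7.56 CPM, Eµ NS 3.94, Eµ LPS 0.453) and miR-668-3p (17.9, 0.116 and 0.181) they lie within or under them.

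By stretch, the summed share from miR-379 to miR-410 was 137 and 253 per 1000000 microRNA counts in Eµ NS and Eµ LPS against 5.80 to 44.6 in the other 8. Upstream of Rtl1 it was 14.1 and 22.9 against 0 to 9.08, and in Rian 6.03 and 7.72 against 0 to 0.242. Antisense to Rtl1 the groups overlapped, with 34.9 and 43.0 against 0.464 to 37.1, and the highest of the other libraries was 3'RR NS replicate 2. In that stretch miR-127-3p, miR-127-5p and miR-431-5p were above the other 8 libraries in both Eµ-deficient ones, while miR-434-3p and miR-433-3p were highest in 3'RR NS replicate 2.

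Of the 78 members with a count, 40 were not above the other 8 libraries in both Eµ-deficient ones, many of them with few counts. miR-541-5p was counted 26 and 5 times in wt NS, 25 and 16 in wt LPS, 18 and 23 in 3'RR NS, 5 and 7 in 3'RR LPS, and 34 and 5 in Eµ NS and Eµ LPS. The Eµ-deficient libraries lay within or below the range of the others. miR-434-3p was likewise seen in all 10 libraries, with 13, 9, 14 and 6 counts in wt, 17, 31, 1 and 3 in 3'RR-deficient cells, and 14 and 3 in Eµ-deficient cells. miR-668-3p had 49 counts in wt NS replicate 2 and 35 in 3'RR NS replicate 2, and 0 to 4 in the other 8. It was thus high in the second NS replicates of both genotypes, which are the shallowest libraries, and the part of depth in its level was not tested. Together these 3 held 10.1%, 7.59% and 7.43% of the cluster counts of the 8 libraries outside Eµ. In all, 11 members with 20 counts or more over the 10 libraries were not above the other 8 in both Eµ-deficient libraries, and these also included miR-337-5p, miR-433-3p, miR-434-5p, miR-136-3p, miR-299a-3p, miR-382-5p, miR-485-3p and the Mir453 hairpin.

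Among the 8 hairpin rows, the Mir540 hairpin had 10 and 23 counts in Eµ NS and Eµ LPS and 0 elsewhere. The Mir134 hairpin had 9 counts in wt NS replicate 2, 8 in wt LPS replicate 2 and 0 in the other 8 libraries.

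Between the Eµ-deficient libraries, Eµ LPS held 1.70 times the cluster share of Eµ NS. Of the 72 members with a count in either library 59 were higher (81.9%) and 13 lower in Eµ LPS, where 59.8% and 40.2% of 1372 microRNA features were. The counting interval of the ratio lay above 1 for 16 of the 57 members with a count in Eµ NS (28.1%) and below 1 for 4 (7.02%), against 28.3% and 34.4% of 981 features. The share of members with an interval above 1 was thus that of all features. miR-376c-3p had a ratio of 3.10 (2.03 to 4.88), miR-654-3p 2.13 (1.498 to 3.09) and miR-369-3p 1.84 (1.52 to 2.23), while miR-127-3p had 1.05 (0.851 to 1.30). miR-541-5p was the other way, with a ratio of 0.115 (0.0351 to 0.296). With 1 library per condition these ratios have no replicate check.

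In wt and 3'RR-deficient cells, the LPS response was tested over both genotypes, and 0 of the 13 members past the filter were called by edgeR, where 157 of 720 features (21.8%) passed. At an unadjusted p under 0.05 there were 2 of 13 members (36.7% of all features), and DESeq2 called 1 (34.3%). miR-337-5p came closest, with 2, 5, 3 and 16 counts in the 4 NS libraries and 0 in all 4 LPS libraries (adjusted p = 0.0578 by edgeR). With the libraries left out in turn the count was 1 without wt NS replicate 1 (163 of 773 features), 2 without 3'RR NS replicate 1 (151 of 776) and 0 otherwise (71 to 116 of all features), and with no filter it was 2 (9.95%). Of the 78 members with a count, 3 (miR-485-3p, miR-337-5p and miR-667-3p) were lower in all 4 LPS than in all 4 NS libraries and 0 were higher, where 5.38% and 8.55% of all features were.

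The median log2 difference of the 13 members was -0.64, and that of all features 0.074. It joined medians of 0.80 in wt and -3.05 in 3'RR-deficient cells, and its sign turned with 1 library, to 0.31 without 3'RR LPS replicate 1 and 0.26 without 3'RR LPS replicate 2. It was -1.80 without wt NS replicate 1, -1.55 without wt NS replicate 2, -0.43 without wt LPS replicate 1 and -0.17 without 3'RR NS replicate 2, with 14 to 17 members past the filter in these fits. The medians within a genotype moved with single libraries too, to between 0.15 (without wt LPS replicate 2) and 2.85 (without wt NS replicate 1) in wt, and to between -5.03 (without 3'RR LPS replicate 1) and -0.82 (without 3'RR NS replicate 2) in 3'RR-deficient cells. Within wt 0 of 13 were called (5 of 720 features, 0.694%), as were 0 of 13 within 3'RR-deficient cells (7 of 720, 0.972%), where at an unadjusted p under 0.05 there were 0 and 2 members (21.7% and 19.3% of features, edgeR). DESeq2 called 0 in wt (13.6% of features) and 1 in 3'RR-deficient cells (12.5%).

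Between 3'RR-deficient and wt cells no member was called in NS, in LPS or over both conditions. edgeR called 0 features in NS, 0 in LPS and 1 over both (0.139%) of 720, and 9, 15 and 21 had an unadjusted p under 0.05 (1.25%, 2.08% and 2.92%), of which 1 was a member (miR-134-5p in LPS). DESeq2 called 0 members in each, and 0.139%, 0.278% and 0.278% of features. miR-134-5p, known from neurons, had 1 and 0 counts in wt NS and 12 and 9 in wt LPS, against 0 and 5 in 3'RR NS and 0 and 0 in 3'RR LPS (adjusted p = 1.00 by edgeR). miR-382-5p was higher in all 4 3'RR-deficient libraries (10, 25, 6 and 9 counts) than in all 4 wt libraries (0, 0, 5 and 3), the 1 member of 78 in which this was so, and 0 were lower in all 4, where 0.461% and 0.307% of features were. The cluster share in 3'RR-deficient relative to wt libraries of the same number was 1.42 and 1.96 in NS and 0.587 and 0.297 in LPS. In NS the groups overlapped (14.1 and 46.3 per 1000000 in wt, 20.01 and 90.8 in 3'RR-deficient cells). In LPS both 3'RR-deficient libraries (19.2 and 8.27) lay below both wt libraries (32.8 and 27.9), and this difference of the sums, with 2 libraries in each group, was not tested. With 13 of 80 members past the filter, most members were not tested between wt and 3'RR-deficient cells in these fits, and the lack of calls does not cover them. The part of depth was not tested.

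The difference of LPS responses between the genotypes called 0 members and 0 of 720 features (5 features, or 0.694%, at an unadjusted p under 0.05, 2 of them members, miR-134-5p and miR-409-3p, by edgeR; 0 by DESeq2).

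Use of the hairpin arms could be measured where a library held 20 counts or more over both strands, which was so for 14 hairpins in Eµ NS and 18 in Eµ LPS of the 27 with both strands in the table, and for 0 to 4 in the other libraries. The 3p strand prevailed in 9 of 14 and 14 of 18. miR-370, miR-494, miR-495 and miR-376c were almost wholly 3p, with a 5p share of 0% to 2.82% in both libraries. miR-431 was almost wholly 5p (100% and 98.7%), and miR-379 (88.2% and 89.8%) and miR-411 (78.1% and 87.4%) were mostly so. miR-382 was even, with 52.7% (Wilson 95% interval 41.5 to 63.7) and 53.3% (44.96 to 61.4), although in 3'RR NS replicate 2 all 25 counts were 5p. miR-434 was mixed in Eµ NS, with 24 of 38 counts from 5p (63.2%, interval 47.3 to 76.6), and in 3'RR NS replicate 2 all 31 counts were 3p. miR-369 gave a 5p share of 1.85% (0.632 to 5.30) in Eµ NS and 8.11% (5.83 to 11.2) in Eµ LPS. Where another library could be measured, miR-379 had 82.9% to 100% 5p counts. For miR-127 there were 3 of 20 in wt NS replicate 1, 0 of 22 in 3'RR NS replicate 1 and 3 of 21 in 3'RR NS replicate 2, against 9.25% and 14.6% in the Eµ-deficient libraries.

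**Figure D5:**
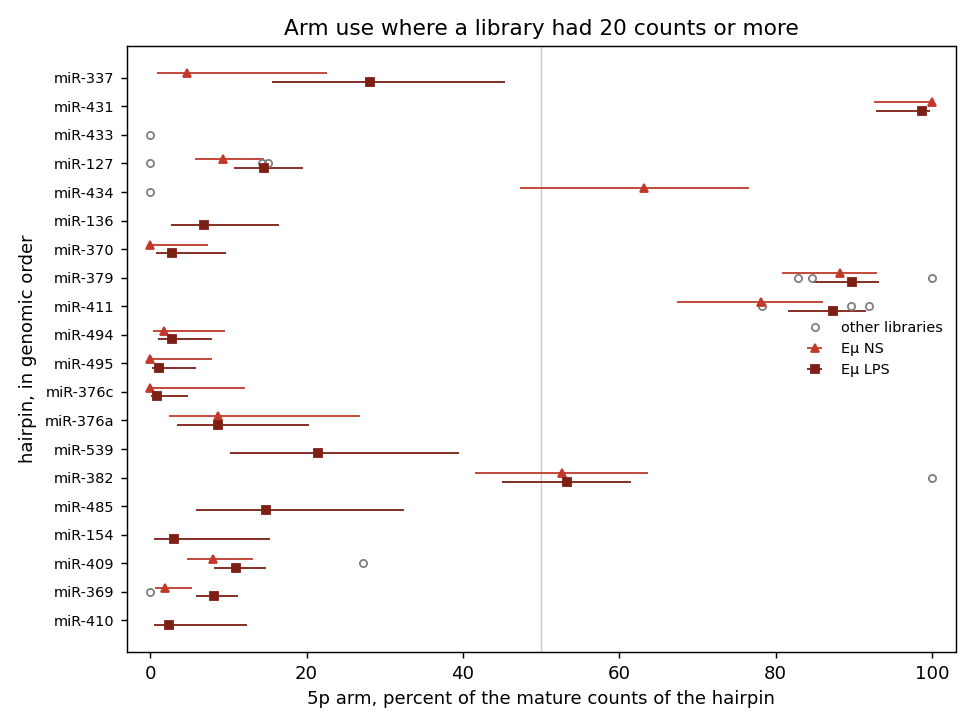
The 5p share of the mature counts (horizontal axis, percent) of each hairpin in which a library held 20 counts or more, with Wilson 95% intervals for Eµ NS (triangles) and Eµ LPS (squares) and open circles for the other libraries. Most hairpins lie near the 3p end, miR-431, miR-379 and miR-411 lie near the 5p end, while miR-382 lies at the middle in the Eµ-deficient libraries and miR-434 at 63.2% in Eµ NS, both away from the open circle of 3'RR NS replicate 2.

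Markers of other cells moved in part with the Eµ-deficient libraries. In a list of 8 stromal and endothelial microRNAs, miR-199a-3p had 79.3 and 112 CPM in Eµ NS and Eµ LPS against 1.81 to 45.8 in the other 8 (adjusted p = 0.0318 against wt by edgeR), and it was the 1 of 8 called against wt, while 4 of 8 were called against the other 8 libraries (both strands of miR-199a, miR-143-3p and miR-214-3p). 2 of the 8 (both strands of miR-199a) lay above the other 8 libraries, but miR-126a-3p, an endothelial microRNA, had 70.6 and 14.2 CPM against 26.0 to 113. The summed stromal and endothelial level was 2234 CPM in Eµ NS against 806 to 2738 in the other 4 NS libraries, and 1538 in Eµ LPS against 572 to 968 in the other 4 LPS libraries. In Eµ LPS miR-10b-5p (513 CPM) and miR-126a-5p overlapped those 4, and miR-126a-3p was below them. miR-143-3p had 836 CPM there against 14.6 to 60.4, miR-145a-5p 20.9 against 0 to 1.61, and miR-214-3p 15.9 against 0. The strands of miR-199a had 112 (3p) against 1.81 to 3.21 and 18.7 (5p) against 0 to 0.228. In Eµ NS miR-143-3p and miR-214-3p overlapped the other 4 NS libraries, and miR-145a-5p was above them (28.7 against 3.33 to 21.2).

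Markers of blood cells were compared within each culture condition, since the myeloid and erythroid sums were lower with LPS. The myeloid list (both strands of miR-223) summed to 5629 CPM in Eµ NS against 526 to 1889 in the other 4 NS libraries, and to 530 in Eµ LPS against 76.7 to 141 in the other 4 LPS libraries, so that it lay above all 4 in both conditions, as the cluster did. Of its 2 members 0 were called against wt and 1, miR-223-3p, against the other 8 (adjusted p = 0.0100 by edgeR). The erythroid list of 5 summed to 5296 CPM in Eµ LPS against 196 to 1558 in the other 4 LPS libraries. In Eµ NS it summed to 14136, above 3 of the other 4 NS libraries (4467 to 5991) and level with 3'RR NS replicate 2 (14282), which also had the highest cluster share of the other 8. Its log2 differences from wt were 2.51 for miR-451a, 2.51 for miR-144-5p, 2.87 for miR-486a-5p and 2.88 for miR-486b-5p (a pair with near-identical counts) and 1.03 for miR-144-3p. None of the 5 passed (adjusted p = 0.0908 to 0.762 by edgeR), although 4 of them had an unadjusted p under 0.05 (0.00310 to 0.0198), and 0 were called against the other 8. The lymphoid list had 0 of 5 called, with a sum of 100397 in Eµ NS, below the other 4 NS libraries (122576 to 242695), and 159850 in Eµ LPS, above the other 4 LPS libraries (84736 to 142671). miR-155-5p alone held 104305 CPM of the Eµ LPS sum, against 26422 to 60275 in the other 4 LPS libraries. In Eµ LPS miR-142a-5p lay below those 4 (34321 against 38855 to 65079), and miR-150-5p, miR-181a-5p and miR-142a-3p lay within their ranges. Of the neural list miR-124-3p was at 0 in all 10 libraries, and 0 of the 2 tested were called. Its sum was 35.3 CPM in Eµ NS against 1.83 to 37.1, and 95.8 in Eµ LPS against 158 to 227. The part of other cell types in the cluster's level was not tested. The share of microRNAs among all counts was lowest in the Eµ-deficient libraries, at 60.2% and 51.4% against 63.9% to 82.1%, and its part was not tested either. Relative to all counts of the library, the cluster still made up 115 and 168 per 1000000 in Eµ NS and Eµ LPS against 6.28 to 61.2.

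MicroRNAs of other imprinted loci were read beside the cluster, from a list of 9 of which 7 had a row. miR-335-5p, from the imprinted gene Mest, had 26.1 and 51.3 CPM in Eµ NS and Eµ LPS against 0 to 8.77 in the other 8 (adjusted p = 0.107 against wt and 0.0255 against the other 8, by edgeR). miR-335-3p had 7.53 and 20.1 against 0 to 5.70 and passed neither test (adjusted p = 0.425 and 0.174 by edgeR). miR-296 (both strands) and miR-298-5p, from the Gnas region, overlapped between the groups. Both strands of miR-770, which lies in Meg3 ahead of the cluster, were at 0 in both Eµ-deficient libraries and at most 0.452 CPM in the others.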

How the data were processed

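Small RNA of 10 libraries was analysed as deposited: whole-number read counts per feature and library, not normalized by the authors. The submitters' processing notes name cutadapt 1.2.1, Bowtie2 and mm10. The counting program and the treatment of multi-mapped reads are not given in the sources used here, so near-identical members could share reads. Labels give the NextFlex kit and 17 PCR cycles. Columns not used numbered 0.

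The microRNA class was fitted with edgeR 4.0.16 in R 4.3.3 (TMM scaling, filterByExpr by group with a minimum count of 10, two-sided quasi-likelihood F-test, Benjamini-Hochberg adjustment over all features tested, threshold 0.05). wt and 3'RR-deficient libraries were fitted together, and Eµ-deficient comparisons used all 10 libraries with additive genotype and stimulation. Whether replicates came from separate cultures beyond the pooled mice is not stated, so p-values measure the spread between these libraries. Positions were read against GENCODE M21. The floor (3 counts) and all intervals describe counting error alone, because PCR reads are not independent molecules. Ratios of pooled counts have exact Clopper-Pearson intervals at 95%.

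Members, lists and tests were chosen with earlier results of these data known. Named were the 12 mature members with the highest mean CPM, every member past the threshold, the 3 smallest p per comparison and the fixed lists, and any other member named was chosen after its values were seen. Alternatives were another scaling, filter, test (DESeq2 1.42.0) or feature set, a GC correction (loess, span 0.75), replicate blocks and each library left out. The fits were also run on simulated counts, whose spread was set below that of these libraries, so that run does not measure error rates in these data.

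Replicate numbers were checked for pairing: replicate differences of 720 features correlated at 0.654 between wt NS and 3'RR NS, 0.112 between wt LPS and 3'RR LPS, and -0.281 to -0.0578 elsewhere, so the numbers were not taken as pairs.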

Additional observations from a re-analysis of the deposited data

Results flagged for a closer look

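miR-369-3p and miR-409-3p stood out because all LPS libraries lay above all NS libraries in wt and below them in 3'RR-deficient cells. The log2 difference of the responses (3'RR minus wt) was -4.85 for miR-369-3p and -6.35 for miR-409-3p, and neither passed (adjusted p = 1.00 for both by edgeR, unadjusted p = 0.0945 and 0.0459). The counts were low, with 14 and 0 in wt NS, 13 and 23 in wt LPS, 14 and 5 in 3'RR NS and 2 and 0 in 3'RR LPS for miR-369-3p.

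2 features of other classes in the same window showed a signal above wt. A piRNA cluster row on the minus strand (chr12:109709064-109728159) overlaps the stretch from miR-379 on and had 1722 counts in Eµ LPS, but 11 in Eµ NS. It had 1675 in 3'RR LPS replicate 1 and 223 in replicate 2, 261 and 206 in wt LPS, and 21 to 58 in the NS libraries of wt and 3'RR-deficient mice. A small nucleolar RNA row inside Rian (ENSMUST00000158892) had 5 counts in Eµ NS, 7 in Eµ LPS and 0 in the other 8 libraries. The other small nucleolar RNA rows of the window, 15 rows in all with this one, had at most 3 counts in any library, and 0 of the 15 passed the filter of the 8-library fit.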

How the results depend on the processing

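Every test of 3'RR-deficient against wt cells, the difference of LPS responses and the LPS response in wt called 0 members under every alternative run, leaving out each library included (0 to 0). For the LPS response over both genotypes the count was 1 with total count scaling, 2 without a filter, 1 with DESeq2 and 0 to 2 with libraries left out, and in 3'RR-deficient cells it was 1 with DESeq2 and 0 to 0 with libraries left out. Over all features the calls for both genotypes were 170 of 720, 179 of 1799, 247 of 720 and 71 to 163 in the same order. In 3'RR-deficient cells they were 90 of 720 with DESeq2 and 0 to 62 with libraries left out.

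For Eµ-deficient against wt, 2 members were called and 0 to 4 with libraries left out. The count was 6 with total count scaling, 11 without a filter, 7 with DESeq2, 7 with all features of the table, 6 with a GC correction and 8 without both second NS replicates. Total count scaling moved the median log2 difference of all features from -0.17 to 0.20. Over all features the calls numbered 16, and 28 with total count scaling, 23 of 657 with a GC correction, 55 with DESeq2, 47 without a filter, 156 of 4554 with all features of the table and 71 without both second NS replicates. For Eµ-deficient against 3'RR-deficient, 1 was called, 0 to 7 with libraries left out, 6 with total count scaling, 10 without a filter, 0 where only features reaching 10 CPM in 2 or more libraries were kept, 9 with DESeq2, 8 with all features, 4 with a GC correction and 13 without both second NS replicates. All features called then numbered 20 with the settings of the report, and 30, 45, 17 of 434, 70, 164 of 4554, 30 of 657 and 82 of 955 under these alternatives in the same order. Against the other 8 libraries it was 12, 0 to 13 with libraries left out, 20 without a filter, 5 with the 10 CPM filter and 20 without both second NS replicates, where 44 of all features were called, and 72 of 1953, 31 of 434 and 109 of 955 under these alternatives. With libraries left out the calls over all features ran from 1 to 33 against wt, 0 to 37 against 3'RR-deficient cells and 0 to 52 against the other 8. A lone Eµ-deficient library was assumed to vary like the other groups. The cause of these moves was not tested.

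The replicate numbers were not taken as pairs, although the differences between replicates correlated at 0.654 within NS, where both second replicates are the shallowest, and 0.112 within LPS, since across conditions the correlation was -0.281 to -0.0578. With the replicate block the Eµ-deficient calls were 2 (wt), 0 (3'RR) and 3 (other 8), with 15, 18 and 24 of 988 features, and with the replicate block within culture condition 11, 10 and 8, where the calls over all 988 features were 105, 102 and 79 (49, 48 and 35 of them lower). With that block and the GC correction together they were 10, 8 and 6, with 66, 68 and 44 of 657 features. The replicate block left 0 members called in each comparison of wt and 3'RR-deficient cells.

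With all counts of the library as denominator the cluster share was 21.6 per 1000000 in wt LPS, 115 in Eµ NS and 168 in Eµ LPS. The ratio of Eµ-deficient to wt ran from 6.33 to 10.8 with libraries left out, and the number of members above the other libraries from 38 to 53. It was 38 to 40 without one of the other 8 libraries (106 to 114 of all features, or 5.43% to 5.84%), 43 without Eµ LPS (233, 11.9%) and 53 without Eµ NS (341, 17.5%). With a minimum of 50 counts, 4 and 8 hairpins were mostly 3p in Eµ NS and Eµ LPS. With a prior count of 0.5 the median log2 ratio of the 12 highest members was 4.88 for Eµ NS to wt NS replicate 2 (3.00 with a prior of 2) and 2.30 for 3'RR NS to wt NS replicate 2 (1.43). Of the alternatives for single named members 660 kept direction and side of the threshold, 41 gained the threshold, 78 lost it and 0 reversed. Depth limits the low members: 41 of 80 did not pass the filter with all 10 libraries.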
